A study of Mus musculus with 4 samples.

Results

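Genes for growth factors, cytokines, their receptors and the proteins that bind or antagonise them were examined in mouse embryonic stem (ES) cells treated with inhibitors of FGFR, MEK or GSK signaling. Members were chosen by name, from gene symbols that the paper's supplementary tables pair with probes of the array, and only in the rows of those tables that were held here. Symbols had to begin with a family name such as Wnt, Fzd, Fgf, Bmp, Tgfb, Igf, Cxcr, Tnf or Epha, or with Gdf, Il, Ccl, Dkk and similar names followed by a digit. This gave 34 genes of the 25030 in the authors' table, each with 1 probe. No symbol of the Pdgf, Vegf, Cxcl, Efna, Efnb, Ephb, Notch, Ccr, Sfrp, Dll or Jag families was in the held rows. The held rows named 22.4% of the genes on the array, so the families are covered in part.

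RNA came from ES cells of the C57BL/6 line B6R(5). Treatment began 24 hr into culture and lasted 48 hr, with 0.2% DMSO in every culture. The DMSO control received DMSO alone. The FGFR inhibitor was PD173074 at 100 μM, the MEK inhibitor PD98059 at 25 μM and the GSK inhibitor BIO at 2 μM in the paper's methods, while a supplementary list of the data sets prints the same numbers in mM. Each condition was measured on 1 array, where ES cell RNA carried Cy3 and a reference mixed from mouse cell lines carried Cy5. In the paper's methods this reference joins RNA of MC1 cells with Universal Mouse Reference RNA from Stratagene. Dyes were not exchanged, so a ratio to the reference can also hold a dye effect of the probe. The 4 arrays have no replicates, so differences could not be checked against replicates and p-values are left out. All 4 arrays lay on the same slide.

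FGFR is the family of tyrosine kinase receptors for fibroblast growth factors, MEK is the kinase that activates ERK downstream of such receptors, and GSK is the kinase that marks beta-catenin for degradation when no Wnt ligand is bound. Mouse ES cells make FGF themselves, and FGF signaling through ERK favours their differentiation. Inhibition of MEK together with GSK is widely used to hold them in an undifferentiated state. Wnt, BMP, FGF, insulin-like growth factor, Eph, chemokine, interleukin and TNF proteins signal through separate receptor families.

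Levels are given as the Cy3 signal that the scanner software had corrected for background and dye, in scanner units, and a level was set against the same probe on other arrays. Where a probe is named as giving the most signal in a marker sum, this says nothing of amounts of RNA, since signal differs by probe. Median Cy3 signal over all genes was 174 on the DMSO control array, 178 with the FGFR inhibitor, 187 with the MEK inhibitor and 184 with the GSK inhibitor. Changes are log2 fold changes over the DMSO control, from the ratio of Cy3 to Cy5 on each array after loess normalization. A gene was counted as changed when it moved at least 2-fold and its Cy3 spots stood well above background on the pair of arrays compared. The signals carry an offset of 50, which makes log2 fold changes smaller in size at dim probes. A dim gene not counted as changed may thus have moved 2-fold or more. The spread beside a change is a robust SD, taken over the changes of genes with like Cy3 signal, which holds true changes as well as error.

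Of the 34 genes, 20 had Cy3 signal well above background on all 4 arrays (58.8%, against 64.8% of all genes), 9 on 1 to 3 arrays (26.5%, against 8.87%) and 5 on none (14.7%, against 26.3%). The number above background was 22 on the DMSO control array, 24 with the FGFR inhibitor, 25 with the MEK inhibitor and 23 with the GSK inhibitor, where 69.2%, 69.5%, 69.6% and 67.6% of all genes were. The Cy5 channel, which holds RNA of cell lines that include fibroblast and blood lines, stood well above background at 27 of the 34 probes on all 4 arrays (79.4%, against 71.3% of all genes). Among the 5 genes without Cy3 signal, Il1rl1 and Tnfsf18 had Cy5 signal on all 4 arrays, so these probes gave signal with the reference RNA.

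**Figure D1:**
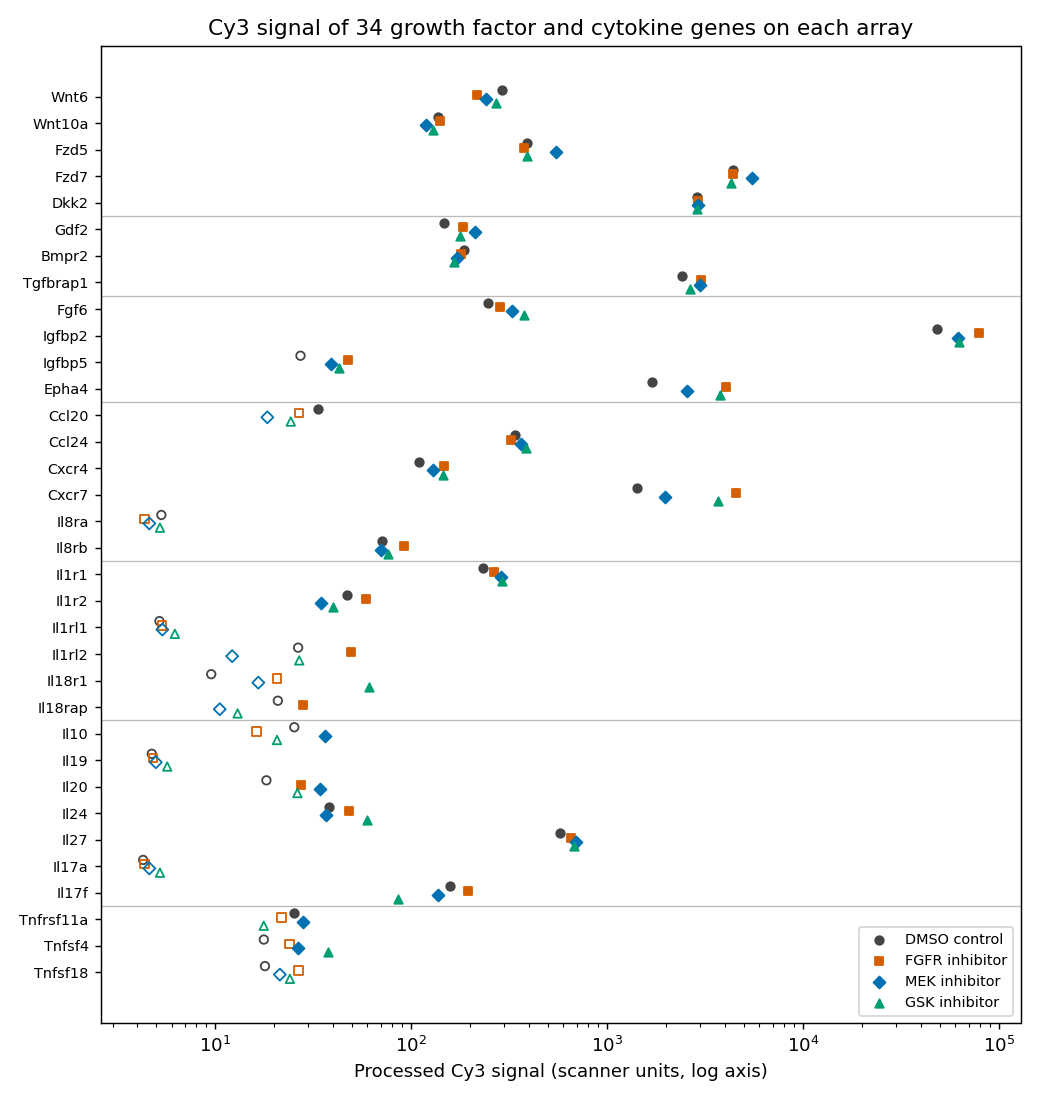
Cy3 signal of the 34 genes, corrected by the scanner software, in scanner units on a log axis. Each point is 1 array (circle, DMSO control; square, FGFR inhibitor; diamond, MEK inhibitor; triangle, GSK inhibitor), filled where Cy3 was well above background and open where it was not, with grey lines between pathways. Signals are not scaled between arrays.

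Cxcr7 and Epha4 were the members that changed 2-fold. With the FGFR inhibitor both rose, 2 of the 20 members measured on both arrays. Over all genes measured 1.39% changed 2-fold (233 of 16794), and nothing particular to the members is read from 2 genes. In bulk RNA, more cells with a transcript and more transcript per cell cannot be told apart. With the GSK inhibitor 1 of 20 members rose, Cxcr7, where 1.43% of all genes changed (235 of 16465). With the MEK inhibitor 0 of 21 members changed, where 0.0832% of all genes did (14 of 16834). The median log2 fold change over the measured members was 0.06, 0.03 and -0.0037 with the FGFR, MEK and GSK inhibitor, and over all genes measured -0.02, -0.01 and -0.0033. Within 0.5 log2 of the control were 18 of 20, 21 of 21 and 18 of 20 measured members, and 92.1%, 98.0% and 90.5% of all genes measured. The 3 comparisons share the control array, so a high or low reading on that array would enter all of them.

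Cxcr7, now named Ackr3, is an atypical chemokine receptor that binds and takes up CXCL12 without activating G proteins. Its Cy3 signal was 1417 on the DMSO control array, 4554 with the FGFR inhibitor, 1984 with the MEK inhibitor and 3705 with the GSK inhibitor. The FGFR and GSK inhibitor arrays were high and the MEK inhibitor array lay nearer to the control. The change was 2.82-fold with the FGFR inhibitor (log2 fold change 1.5, spread 0.24), the 38th highest of 16794 genes. With the GSK inhibitor it was 2.38-fold (1.25, spread 0.29), the 54th highest of 16465. With the MEK inhibitor Cxcr7 was at 1.22 times the control (0.29, spread 0.17) and was not counted as changed.

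The Cy5 signal at the Cxcr7 probe was 22308, 23301, 24392 and 22776 on the 4 arrays in the same order. As the reference RNA was the same on each array, this channel shows the error of a repeated Cy5 measurement. At this probe Cy5 was far brighter than Cy3, so it does not give the error of the Cy3 reading. Its log2 differences from the control array, after quantile normalization of Cy5 alone, were -0.03, -0.01 and -0.06 with the FGFR, MEK and GSK inhibitor. On all 4 arrays Cxcr7 was lower in ES cells than in the reference, with log2 ratios of -3.95, -2.45, -3.66 and -2.69.

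Epha4 encodes a receptor tyrosine kinase for ephrins, which guides axons and sets tissue boundaries. Cy3 signal for Epha4 was 1690.1 with DMSO, 4061 with the FGFR inhibitor, 2564 with the MEK inhibitor and 3768 with the GSK inhibitor. All 3 inhibitor arrays read higher than the control. Its rise with the FGFR inhibitor was 2.07-fold (log2 fold change 1.05, spread 0.24), just past the threshold and the 115th highest. The log2 fold change with the GSK inhibitor was 0.82 (1.77-fold, spread 0.29), short of the threshold, but from Cy3 alone it was 1.04. With the MEK inhibitor it was 0.32 (1.25-fold, spread 0.17). The Cy5 signal was 765, 835, 897 and 915 on the 4 arrays, with log2 differences of 0.04, 0.09 and 0.17 from the control in Cy5 alone.

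Both genes lie on chromosome 1, as do 29 of the 34 members. This shared position comes from the held rows, since the table that gave these 29 lists genes in genome order and only its first rows are held. It is not a property of the families. As Cxcr7 and Epha4 were the members counted as changed, which is how they were picked, their promoters (250 bases before to 50 after the start of the gene) are shown from RefSeq, build GRCm38.p6, 5′ to 3′ on the strand of the gene. Epha4 is on the minus strand at chr1:77515039-77515338 and Cxcr7 on the plus strand at chr1:90203730-90204029. Capitals mark CCAAT on either strand in both, and TATAAA in the Cxcr7 promoter. These 2 motifs were chosen after the sequences were seen.
Epha4: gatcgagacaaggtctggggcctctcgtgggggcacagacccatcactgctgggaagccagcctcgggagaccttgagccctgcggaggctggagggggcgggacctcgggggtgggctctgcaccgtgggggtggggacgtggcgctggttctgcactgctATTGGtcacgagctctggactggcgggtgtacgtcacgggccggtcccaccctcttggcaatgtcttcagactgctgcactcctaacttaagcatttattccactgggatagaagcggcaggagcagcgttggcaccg
Cxcr7: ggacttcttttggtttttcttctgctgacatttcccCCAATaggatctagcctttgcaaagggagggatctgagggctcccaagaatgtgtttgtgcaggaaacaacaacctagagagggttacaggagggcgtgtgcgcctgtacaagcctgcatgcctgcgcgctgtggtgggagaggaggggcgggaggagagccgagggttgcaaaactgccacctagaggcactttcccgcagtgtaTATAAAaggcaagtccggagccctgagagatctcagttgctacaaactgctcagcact

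CCAAT was found in 37.4% of 32851 RefSeq promoters of this length and TATAAA in 13.6%, on either strand. Neither promoter held CTTTGAA or CTTTGAT (letters of TCF and LEF sites, in 8.65% of promoters). The other TCF and LEF letters searched were CTTTGTA and CTTTGTT (in 9.16%), also in neither promoter, as were TGANTCA (AP-1, 7.81%) and CCGGAAG (Ets, 8.86%). This says only that these letters are not in these windows. The probes that gave the signals are 60 bases long, and their first 30 bases are shown so that each can be identified.
Epha4: atttattgcattctgacagggtgtatggca
Cxcr7: acttcgggctgcaaacccgtgaacaaggga

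**Figure D2:**
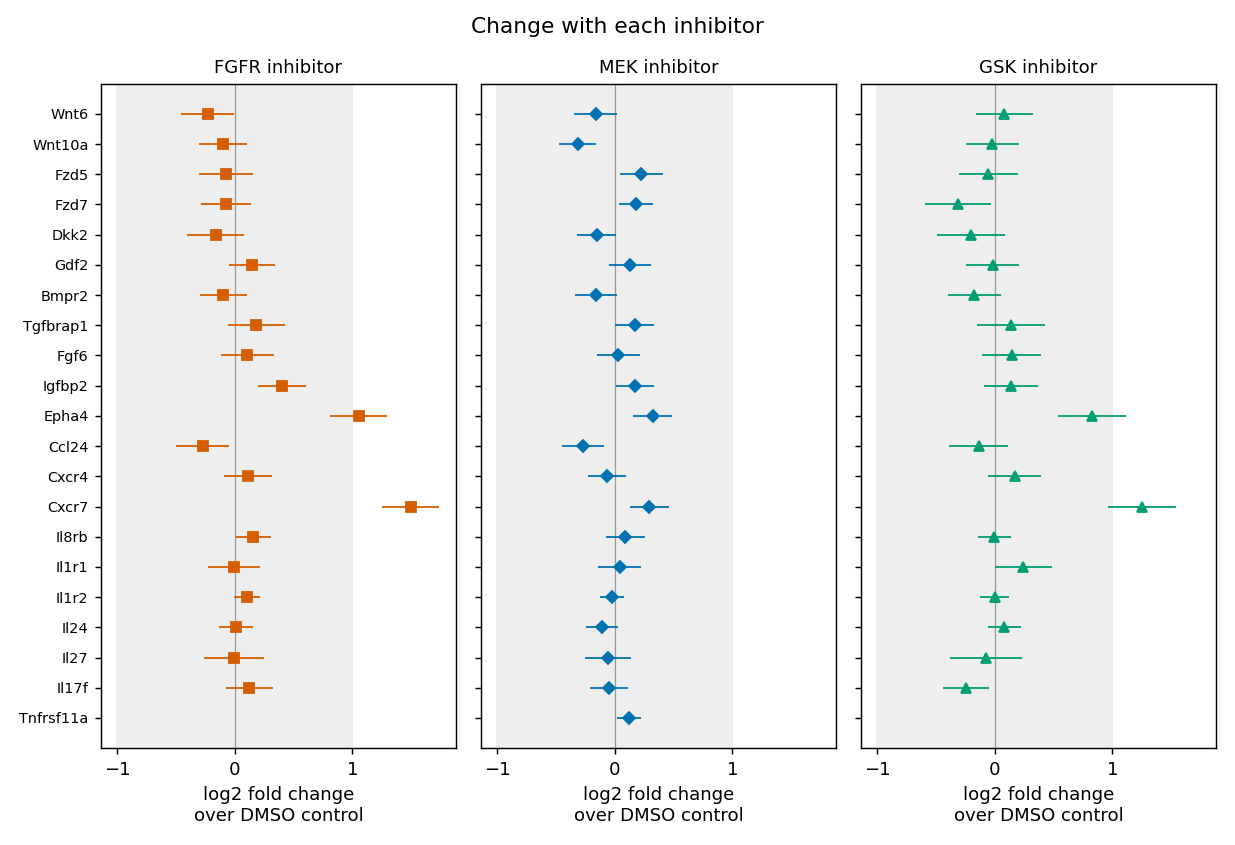
Log2 fold change over the DMSO control with each inhibitor, for the members whose Cy3 was well above background on each array of a comparison. Points are 1 array against 1 array, bars are the robust SD among genes of like signal and the grey band spans changes under 2-fold. Outside the band lie Cxcr7 and Epha4 with the FGFR inhibitor and Cxcr7 with the GSK inhibitor.

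In the Wnt pathway all 5 members were measured on all arrays and none changed 2-fold. Wnt6 and Wnt10a are secreted ligands, Fzd5 and Fzd7 are receptors and Dkk2 is a secreted protein that binds the Wnt co-receptor LRP. Wnt6 had Cy3 signals of 291, 216, 240.1 and 271 with DMSO, FGFR, MEK and GSK inhibitor, and this order of arrays is kept for the values that follow. Wnt10a had 137, 141, 119 and 129, and its log2 fold change with the MEK inhibitor was -0.32 (spread 0.16) from the ratio and -0.13 from Cy3 alone. Both ligands were lower in ES cells than in the reference on every array, with log2 ratios between -3.90 and -0.92.

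The Fzd7 receptor, a known receptor of mouse ES cells, had Cy3 signals of 4376, 4389, 5472 and 4279. Its log2 ratio to the reference was 1.46, 1.38, 1.63 and 1.14, above the reference on each array. Fzd5 had 392, 376, 551 and 393, with log2 ratios of 1.65, 1.58, 1.88 and 1.60. The MEK inhibitor array read highest for both receptors, but the log2 fold changes were 0.18 and 0.23 with spreads of 0.15 and 0.19. That of Fzd5 turned to -0.03 in the processed signals, and that of Fzd7 was 0.37 with median centring. With the GSK inhibitor, Fzd7 had a log2 fold change of -0.31 (spread 0.28) from the ratio and -0.08 from Cy3 alone, while its Cy5 reading went from 1332 to 1615. Dkk2 had 2891, 2906, 2901 and 2884, and its log2 fold changes of -0.16, -0.16 and -0.20 were within the spread.

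The other genes of the Wnt pathway gave 9 of 9 measured and 0 changed with each inhibitor. Among them the highest value with the GSK inhibitor was that of Csnk1g2, a casein kinase, at 0.33, and the lowest that of Dvl1, which relays the signal from Frizzled receptors, at -0.20. With the FGFR inhibitor Apc, a scaffold of the beta-catenin destruction complex, was highest at 0.25 and Dvl1 lowest at -0.26. With the MEK inhibitor Csnk1g2 was highest at 0.16 and Tnks2, a tankyrase, lowest at -0.09.

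Among BMP and TGF-beta genes, Gdf2 (BMP9, a circulating ligand), Bmpr2 (the type II BMP receptor) and Tgfbrap1 (a protein that associates with TGF-beta receptors) were measured on all 4 arrays. Gdf2 had Cy3 signals of 148, 184, 211 and 178, Bmpr2 186, 180.2, 172 and 166, and Tgfbrap1 2425, 3029.6, 2995 and 2655. None changed 2-fold, and their log2 fold changes lay between -0.18 and 0.18 over the 3 inhibitors. Gdf2 with the MEK inhibitor was at 0.42 in the processed signals, and Tgfbrap1 at 0.36 with median centring.

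Of the partners of this pathway 11 were measured with each inhibitor, with median log2 fold changes of -0.03, 0.10 and -0.10, and 9, 11 and 10 of them lay within 0.5 log2 of the control. Cfc1, a co-receptor for Nodal, was at 942 with the FGFR inhibitor against 73.6, 94.1 and 68.0 on the other arrays (log2 fold change 2.04, spread 0.20), the 10th highest. This log2 fold change was 1.82 from Cy3 alone and 0.88 in the processed signals, which divide by Cy5 with no offset, and the Cy5 reading went from 3.79 to 26.3 and was well above background on 1 array of the 4. Inhbb, the beta B subunit of activin and inhibin, was at 4464, 2354, 6675 and 1257, with log2 fold changes of -0.86, 0.35 and -1.68. With the FGFR inhibitor 1 of 11 measured partners rose 2-fold and 0 fell (1.39% of all genes changed), and with the GSK inhibitor 1 fell and 0 rose (1.43%). In the processed signals 0 of 11 changed with the FGFR inhibitor (4.31% of all genes) and 2 fell with the GSK inhibitor (4.65%). Cfc1 with the GSK inhibitor was at -1.40 there, against -0.12 from the ratio. Nothing about the list as a whole is read from 1 or 2 genes. With the MEK inhibitor 0 of 11 changed, from Inhbb at 0.35 to Acvr2b, a type II activin receptor, at -0.13.

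In the FGF, IGF and Eph group, Epha4 is given above. Fgf6, a ligand best known from muscle, had Cy3 signals of 247, 285, 329 and 377, and its log2 fold changes of 0.11, 0.03 and 0.14 from the ratio were within the spread. From Cy3 alone the last of these was 0.33, where the spread of the ratio was 0.25, while its Cy5 reading went from 167 to 224. Igfbp2, a secreted protein that binds insulin-like growth factors, had 48315, 78862, 61643 and 62255. The DMSO control was the lowest of the 4 arrays and the FGFR inhibitor array the highest. From the ratio, the log2 fold changes of Igfbp2 were 0.40, 0.17 and 0.14, and from Cy3 alone 0.66, 0.28 and 0.30. The difference lies in the Cy5 reading, which was 8765, 11039, 9978 and 10275 although the reference RNA was the same. Igfbp5, a related binding protein, had no Cy3 well above background with DMSO and read 47.4, 38.9 and 42.9 with the inhibitors. For its normalized Cy3 level, which includes the offset of 50, the bound with the GSK inhibitor was at least 1.04-fold. Its log2 ratios were -2.71, -2.93, -3.18 and -2.76, and as Cy3 with DMSO was not well above background no change is read from them.

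The partner list here held receptor kinases, signaling proteins downstream of them, heparan sulfate genes and others, and 0 of 16, 0 of 16 and 0 of 15 measured genes changed 2-fold with the FGFR, MEK and GSK inhibitor. Hs6st1, which sulfates the heparan chains that FGF binds, was highest with the FGFR inhibitor at 0.79 (spread 0.21). Map2k1ip1, a scaffold of MEK and ERK, was lowest with the FGFR inhibitor at -0.63 (spread 0.20) and with the GSK inhibitor at -0.68 (spread 0.24). Elk4, an Ets factor that ERK phosphorylates, was highest with the GSK inhibitor at 0.60 and with the MEK inhibitor at 0.31. Sulf1, which removes sulfate from heparan, was lowest with the MEK inhibitor at -0.40.

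Chemokine genes besides Cxcr7 gave no 2-fold change. Cxcr4, the G protein-coupled receptor of CXCL12, had Cy3 signals of 110.5, 147, 129 and 145, with log2 fold changes of 0.11, -0.07 and 0.17 that lay within the spread. In the processed signals they were 0.42, 0.16 and 0.43. Ccl24, a ligand that attracts eosinophils, had 341, 326, 363 and 386, with log2 fold changes of -0.27 (spread 0.22), -0.27 (spread 0.18) and -0.14 (spread 0.25). From Cy3 alone these were -0.07, -0.04 and 0.06. Il8rb (Cxcr2), a receptor on neutrophils, had 70.8, 92.5, 70.4 and 76.1, with Cy5 not well above background on any array. Ccl20 was above background only with DMSO, at 33.5, and Il8ra (Cxcr1) on no array. Il8ra and Il8rb are neighbouring genes with no other protein-coding gene between them in RefSeq.

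The interleukin 1 family receptors Il1r2, Il1r1, Il1rl2, Il1rl1, Il18r1 and Il18rap follow each other on chromosome 1 with no other protein-coding gene between them in RefSeq. Of these 6 neighbours, Il1r1 and Il1r2 had Cy3 signal above background on all 4 arrays. Il1r1, the signaling receptor for interleukin 1, had 234, 265, 288 and 292, and Il1r2, its decoy receptor, 47.3, 59.0, 34.9 and 40.2. Neither changed 2-fold, and Il1r1 was below the reference by log2 ratios of -3.63 to -3.88. Il1rl2 was above background only with the FGFR inhibitor (49.2), Il18rap only with the FGFR inhibitor (28.1) and Il18r1 only with the GSK inhibitor (61.0). Il1rl1, the receptor for interleukin 33, was on no array above background.

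Il18r1 gave the highest bound, at least 1.30-fold higher with the GSK inhibitor than with DMSO. Its Cy5 reading rose on the same array, from 31.4 with DMSO to 85.9, and its log2 ratio was -0.16 with DMSO and -0.13 with the GSK inhibitor, but Cy3 with DMSO was not well above background, so no change is read from these. All other bounds were between 1.01-fold and 1.08-fold, for Igfbp5, Ccl20, Il1rl2, Il18rap, Il20, Tnfrsf11a and Tnfsf4. Bounds set normalized Cy3 on the brighter array against the higher of the dim probe's own value and the lowest signal well above background. They are open to dye bias since dyes were not exchanged. Normalized Cy3 includes the offset of 50, which draws bounds at such dim probes toward 1. A small bound therefore does not limit the size of a change. Where a bound was under 1, no fold is given.

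Of the other interleukins, Il24, Il27 and Il17f were above background on all 4 arrays. Il27, a subunit of a cytokine that acts on T cells, had Cy3 signals of 578, 656, 696 and 677. Il24 had 38.2, 48.2, 36.8 and 59.3. Il17f had 158, 196, 137 and 86.0, lowest with the GSK inhibitor (log2 fold change -0.24, spread 0.20, and -0.47 in the processed signals). Il10 was above background only with the MEK inhibitor (36.6), and Il20 with the FGFR (27.5) and MEK (34.5) inhibitor. Il19 and Il17a were above background on no array. Il24, Il20, Il19 and Il10 are neighbours among the protein-coding genes of RefSeq, as are Il17a and Il17f.

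In the TNF family, Tnfrsf11a (RANK) was above background with DMSO (25.3) and the MEK inhibitor (28.0), with a log2 fold change of 0.12. Tnfsf4 (OX40 ligand) was above background with the MEK (26.6) and GSK (37.9) inhibitor, and Tnfsf18 on no array. These readings lie near the lowest Cy3 signal that was well above background, which was 23.6, 24.0, 24.9 and 28.7 on the 4 arrays.

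Partners of interleukin, TNF and chemokine receptors gave 0 changes among 15 measured with each inhibitor. Stat4, which interleukin 12 activates, was highest with the FGFR inhibitor at 0.53 (spread 0.25), with Cy3 signals of 984, 1536, 1198 and 688. Cflar, an inhibitor of caspase 8, was lowest with that inhibitor at -0.24. With the MEK inhibitor Map3k7ip2, a subunit of the TAK1 kinase complex, was highest at 0.26 and Zap70, a T cell kinase, lowest at -0.33. Ly96, which helps TLR4 bind endotoxin, was highest with the GSK inhibitor at 0.35, and Chuk, a kinase of the NF-kappa B pathway, lowest at -0.55 (spread 0.28). The T cell genes Cd28, Ctla4, Icos and Cd247 were above background on no array, while Zap70 was on all 4, at 264, 246, 257 and 210.

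No Notch receptor or ligand of the named families was held. Of the list of Notch genes 8 of 8 were measured, and 1 rose with the FGFR inhibitor, where 1.39% of all genes changed. This was Dner, a transmembrane protein with EGF repeats that can bind Notch, at 75.0, 459, 139 and 123 (log2 fold change 1.41, spread 0.20, the 46th highest). This value was 2.56 in the processed signals and 1.19 from Cy3 alone. Hes6, a member of the Hes family of repressors, was lowest with that inhibitor at -0.63 (spread 0.24). With the MEK and GSK inhibitor 0 of 8 changed, and the values ran from Hes6 at -0.11 to Dner at 0.39 and from Hes6 at -0.04 to Dner at 0.32.

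Over the partner lists together, 2 of 59 measured genes changed with the FGFR inhibitor (3.39%), 0 of 59 with the MEK inhibitor and 1 of 58 with the GSK inhibitor (1.72%), against 1.39%, 0.0832% and 1.43% of all genes. In the processed signals 1 of 59 (1.69%), 0 of 59 and 2 of 58 (3.45%) changed, against 4.31%, 1.54% and 4.65% of all genes. The counts differ from the main ones by Cfc1 alone, whose Cy5 was above background on 1 array and whose Cy3 alone gave 1.82 with the FGFR and -0.06 with the GSK inhibitor.

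The cells were checked against markers. Of 9 ES cell markers 4 were held (Prdm14, Tcfcp2l1, Gbx2 and Nr5a2), and all 4 were above background on all arrays, with summed Cy3 signals of 37268, 51572, 56711 and 69438. The Tcfcp2l1 probe gave most of this signal. The log2 fold change of Tcfcp2l1 from the ratio was 0.40 with the MEK inhibitor (spread 0.16) and 0.41 with the GSK inhibitor (spread 0.23). From Cy3 alone these were 0.76 and 1.10, and its Cy5 reading was 3035, 4015, 4307 and 5293. Pou5f1, Nanog, Sox2, Zfp42 and Esrrb were not held. Gbx2 was at 8669.7, 1806, 6080.4 and 8704, so its Cy3 signal was low with the FGFR inhibitor. From the ratio its log2 fold change with that inhibitor was -0.98, in the processed signals -0.19 and from Cy3 alone -2.34, while the Cy5 reading of the same reference RNA went from 350 to 83.3. The other 3 were above the control from the ratio with the FGFR inhibitor, Prdm14 at 0.60, Nr5a2 at 0.60 and Tcfcp2l1 at 0.42. Their spreads were 0.22, 0.23 and 0.20, and from Cy3 alone they were at 0.77, 0.36 and 0.76. Cy5 of Nr5a2 was above background on no array. From the ratio 0 of the 4 markers were counted as changed with each inhibitor. With the GSK inhibitor Nr5a2 was at 0.75 (spread 0.29), Prdm14 at -0.16 (spread 0.29) and Gbx2 at -0.22 (spread 0.28). With the MEK inhibitor Nr5a2 was at 0.19 (spread 0.19), Prdm14 at 0.10 (spread 0.16) and Gbx2 at -0.22 (spread 0.15). From Cy3 alone Gbx2 with the MEK inhibitor was at -0.66.

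Of the fibroblast markers 5 of 7 were held and 2 were above background on all arrays, with sums of 926, 1027, 982 and 1024, with most signal from the Col3a1 probe. Col5a2 was on no array above background. Of the 3 blood markers given here, 1 (Fcer1g) was above background on all arrays and 2 (Ptprc and Cd28) on none, with sums of 96.4, 107, 119 and 96.1. Both endothelial markers held (Sele and Selp, of 5) were above background on no array, with sums of 8.87, 18.9, 11.0 and 10.6. Sox17, the primitive endoderm marker held of 5, was at 612, 506, 671 and 488. Of 5 neural or muscle markers all were held and 3 were above background on all arrays, with sums of 657, 434, 604 and 639, with most signal from the Pou3f3 probe on the DMSO control and MEK inhibitor arrays and from the En1 probe on the other 2. With the FGFR inhibitor 4 of 4 measured were below the control, as were 9061 of 16794 genes, with Pou3f3 at -0.57, Des at -0.38, En1 at -0.13 and Myog at -0.07. Of these En1 and Myog were within the spread. In the processed signals Myog was at 0.23, En1 at -0.22, Des at -0.83 and Pou3f3 at -1.35, which is past 2-fold. From Cy3 alone Pou3f3 was at -0.49. With the MEK inhibitor 3 of 3 measured were below the control, as were 8877 of 16834 genes. Pou3f3 was at -0.27 there (-1.10 in the processed signals), Des at -0.13 and En1 at -0.12. With the GSK inhibitor 0 of 3 measured were counted as changed, and 2 in the processed signals. The 3 markers lay on both sides of the control. At these dim probes the offset of 50 makes log2 fold changes from the ratio smaller in size. En1 read 172 with DMSO and 360 with the GSK inhibitor (log2 fold change 0.71, and 1.15 in the processed signals). Pou3f3 read 235 and 99.4 (-0.75, and -1.88 in the processed signals). As its Cy5 was above background on no array, the value of Pou3f3 from Cy3 alone is also given, -0.59. Des read 213 and 119 (-0.34, and -0.77 in the processed signals). The part of any of these in the readings of Cxcr7 and Epha4 was not tested.

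The reference channel gives the error of the Cy5 readings between arrays, not that of Cy3. At the probes of Gbx2 (FGFR inhibitor), Tcfcp2l1 and Igfbp2 Cy3 read far above Cy5. There the Cy5 reading moved with Cy3, and the ratio gave smaller changes than Cy3 alone. Among 18188, 18095 and 18047 genes with Cy5 well above background on both arrays, 10, 0 and 9 read 2-fold apart from the control in Cy5 alone, with robust SDs of the log2 difference of 0.08, 0.08 and 0.13 for the FGFR, MEK and GSK inhibitor arrays. For the ratio the robust SDs over all genes were 0.20, 0.16 and 0.24. The Cy5 values hold no error of growing and treating another culture.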

How the data were processed

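ES cell RNA from 4 cultures was measured on 4 two-colour arrays of 1 slide, 1 for each condition, grouped by the sample labels. The authors deposited scanner output with spot intensity and local background, not normalized, and processed intensity from Feature Extraction. Their deposited log10 table of 25030 genes holds, from the values, the processed Cy3 over Cy5 ratio in log10 with the mean Cy5 level added back (column medians 2.26, 2.25, 2.26 and 2.26).

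Normexp (offset 50, all spots) was run with limma 3.58.1 under R 4.3.3. Loess within arrays followed, without control spots and the 3 to 4 outlier spots of each array, and spots of a probe were averaged. The log2 of Cy3 over Cy5 with an inhibitor, minus that with DMSO, gave each log2 fold change. Spread was taken in 20 groups by signal, in Python 3.11.15 (numpy 2.4.6, pandas 2.3.3, matplotlib 3.10.9). The steps were tested on simulated arrays, where the size of changes was checked at bright probes only. This check does not cover the dim members.

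Every member above background on at least 1 array is named with its levels, and of the partner genes those changed 2-fold, else the extremes. All 34 members were matched to RefSeq, 3 by older symbols. The members and lists were chosen with earlier results of these data known. Of the 5 blood markers listed, 2 are not reported here, and the sums are without them. The number of arrays limits the precision.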

Additional observations from a re-analysis of the deposited data

How the results depend on the processing

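The number of members changed 2-fold was 2, 0 and 1 with the FGFR, MEK and GSK inhibitor, and the first 2 counts were the same under all 10 alternatives: an offset of 16, no background subtraction, processed signals, median centring, Aquantile after loess (which leaves ratios as they are), Cy3 alone, the deposited table, no filter, a filter on both channels and a 1.5-fold threshold. For the GSK inhibitor the count was 2 with Cy3 alone and 2 at 1.5-fold, as Epha4 passed. Cxcr7 had log2 fold changes of 1.5 to 1.62 and 1.25 to 1.36 with the FGFR and GSK inhibitor over the normalizations. Members above background on all 4 arrays numbered 20, and 19 with both channels required. Of 61 member values, 13 moved by more than the spread in the processed signals, 13 in the deposited table, 5 with median centring, 3 with Cy3 alone and 1 with an offset of 16. No called value turned sign. Over all genes the processed signals gave 724, 260 and 766 changed in place of 233, 14 and 235. An offset of 16 gave 318, 28 and 330, and 1.5-fold gave 958, 177 and 1077. Median centring put the median of all genes at 0.10 with the MEK inhibitor in place of -0.01, and the share of higher calls at 75.0% in place of 50%, and at 60.1% in place of 48.1% with the GSK inhibitor. The cause was not tested. With 1 slide, no fit with slide as a block was run. No paired analysis was possible because conditions have 1 array each. Signals near background limit the members below it to bounds.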
